A study of Mus musculus with 4 samples.

Results

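Complement RNA in the mouse mammary gland was examined for 9 genes: C1qa, C1qb, C1qc, C1ra, C1s1, C4b, C3, Cfb and Serping1. They are 9 of the 28693 genes listed in the count tables and were found by symbol. They had been selected on measured levels in these libraries, because C3 was lower in LATS1/2 KO luminal cells while C1q and Serping1 marked macrophages and fibroblasts, so the luminal contrast between conditions and the levels across lineages are given as descriptions, without a test. Droplet-based 3' single-cell RNA counts came from 4 adult virgin mice, 1 library per mouse. The 2 WT mice carried floxed Lats1 and Lats2 (Lats1f/f;Lats2f/f) and a heterozygous R26-lsl-EYFP reporter but no Cre. The 2 LATS1/2 KO mice carried the same floxed alleles plus Krt8-CreERT2, with a heterozygous reporter in replicate 1 and a homozygous reporter in replicate 2. All 4 mice received 5 daily intraperitoneal doses of 2 mg Tamoxifen and were sampled 7 days after the last dose. The Krt8 promoter drives the inducible Cre in luminal cells, so any difference in basal, stromal or immune cells was measured in cells in which Cre was not meant to act. Condition rests on 2 mice per group, and anything else that differed between those mice cannot be told apart from it.

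Complement is a cascade of serum proteins that tags surfaces for removal. In the classical pathway, C1q, made of A, B and C chains, binds a target and activates its attached proteases C1r and C1s, which cleave C4 and C2 to form a C3 convertase. The alternative pathway uses factor B (Cfb) bound to C3b, and both routes converge on C3, whose fragments coat cells and recruit leukocytes. C1 inhibitor, encoded by Serping1, inactivates C1r and C1s. Liver makes most plasma complement, C1q comes mainly from macrophages, and epithelia and fibroblasts can make several components locally.

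Each cell was given a lineage from marker genes that hold none of the 9 complement genes, and UMIs, the tags that count single captured molecules, were summed per lineage and library and scaled to CPM, counts per 1000000. Of 20324 barcodes 18200 cells were kept, with 38792520 to 46810771 UMIs per library, and 16410 of them fell in a lineage. Cells with markers of more than 1 lineage (821) were left out in place of a doublet caller, and libraries shared 4 to 12 barcodes in pairs. Luminal hormone receptor negative (HR-) cells numbered 2926 and 2120 in WT and 1493 and 1574 in LATS1/2 KO, and luminal HR+ cells 1108 and 797 against 425 and 118. A further class, called luminal-marker-low, passed the epithelial markers but no luminal or basal marker score, with 39 and 11 cells in WT and 1133 and 1055 in LATS1/2 KO, of which 42.5% and 54.4% carried EYFP UMIs. Fibroblasts numbered 57 and 24 against 311 and 914, and macrophages 7 and 5 against 235 and 351. Lats1 in luminal HR- cells was 25.6 and 25.3 CPM in WT and 18.2 and 21 in LATS1/2 KO, and Lats2 was 15.2 and 16.9 against 27.3 and 29.8. The 3' tags may lie outside the deleted exons, so these levels check the genotype poorly, whereas EYFP was 0.342 and 0.367 CPM in WT luminal HR- cells and 48.3 and 60.1 in LATS1/2 KO, as labelled.

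C1qa, C1qb and C1qc encode the recognition subunits of the classical pathway and lie beside each other on the minus strand of chromosome 4 (GRCm38, 136895917 to 136898803, 136880129 to 136886187 and 136889804 to 136893065). All 3 were macrophage transcripts in LATS1/2 KO glands. C1qa stood at 3289 and 3484 CPM in the macrophages of replicates 1 and 2, C1qb at 4064 and 4191, and C1qc at 2076 and 1969. The 2 libraries differed little, and their exact Poisson intervals, which cover counting error only, ran from 3174 to 3407 and from 3387 to 3583 CPM for C1qa. In WT the macrophage class was too small to compare. The 7 macrophages of WT replicate 1 held 66 C1qa, 55 C1qb and 36 C1qc UMIs, and the 5 of WT replicate 2 held none. The share of C1q UMIs from each chain was nearly the same in both LATS1/2 KO libraries, at 34.9% and 36.1% for C1qa, 43.1% and 43.5% for C1qb, and 22.0% and 20.4% for C1qc. All 3 chains were detected together in 161 of 235 macrophages (68.5%) and in 242 of 351 (68.9%).

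The regions before the C1qb and C1qc starts are shown because these adjacent genes were high in the same cells. They are the 250 bases before the RefSeq transcript start (GRCm38.p6, minus strand, written 5′ to 3′ on the gene's strand), C1qb at chr4:136886201-136886450 and C1qc at chr4:136892915-136893164. Capitals mark the letters GAGGAA, a core recognised by the myeloid factor PU.1, or TTCCTC where they lie on the other strand.
C1qb: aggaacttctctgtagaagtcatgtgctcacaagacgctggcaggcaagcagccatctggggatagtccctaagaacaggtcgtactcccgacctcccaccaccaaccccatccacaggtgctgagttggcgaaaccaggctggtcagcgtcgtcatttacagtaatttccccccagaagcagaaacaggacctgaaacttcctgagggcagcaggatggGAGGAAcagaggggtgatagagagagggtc
C1qc: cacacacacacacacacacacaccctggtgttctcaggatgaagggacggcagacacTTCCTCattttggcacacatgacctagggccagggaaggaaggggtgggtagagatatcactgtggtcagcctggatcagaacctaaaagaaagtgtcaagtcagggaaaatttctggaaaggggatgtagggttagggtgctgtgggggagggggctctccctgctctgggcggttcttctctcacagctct
The C1qc gene position given above, from GENCODE, runs to 136893065, inside the C1qc window, so its start differs between the annotations. The match began 30 bases before the RefSeq start in C1qb and 193 bases before it in C1qc. The same letters, on either strand, occur in 23.3% of 32851 mouse promoter windows of 250 bases, so a match is common and is no evidence of binding. Spi1, which encodes PU.1, was among the 5 genes outside the complement list whose levels most resembled those of C1qa over 31 lineage sums from 10 lineages (Pearson r of log2(CPM + 1) 0.888). The other genes were Aif1 (0.908), Ms4a7 (0.895), AF251705 (0.891) and Cyp4f18 (0.889). Aif1 and Ms4a7 belonged to the markers that defined the macrophages, and sums of 1 library share its depth and free RNA, so these values only describe the pattern.

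C1q UMIs also appeared outside macrophages, in each lineage with at least 20 cells in a LATS1/2 KO library. Between 14.5% and 20.8% of luminal, basal, fibroblast, endothelial and T and NK cells held at least 1 C1q UMI, against 88.9% and 88.3% of macrophages. Perivascular cells, with 23 and 43 cells, gave 26.1% and 6.98%, and the 24 adipocytes of replicate 2 gave 29.2%. In these classes the summed C1q level was 18.1 to 51.8 CPM, or 0.192% to 0.537% of the macrophage level, apart from 93.9 CPM (6 UMIs) in the perivascular cells of replicate 1. The 19 T and NK cells of replicate 1 held 63.8 CPM each of C1qb and C1qc, from 3 UMIs each. In the same classes the summed macrophage markers stood at 0.404% to 4.56% of their macrophage level. The chain split there was not quite that of macrophages. In luminal, basal, fibroblast and endothelial cells C1qc took 14.7% to 22.5% of C1q UMIs in LATS1/2 KO replicate 1, against 22.0% in macrophages, and 22.2% to 36.7% in replicate 2, against 20.4%, so it lay mostly below in the former library and above in the latter. In WT glands 0.41% and 1.13% of luminal HR- cells held a C1q UMI. T and NK cells, which should lack C1q, were at 14.5% in LATS1/2 KO replicate 2, so shares near that value are not read as expression. The estimate of free RNA was close to the C1qb level in luminal HR- cells (10.1 against 9.19 and 9.21 CPM) and below it in fibroblasts (7.3 and 5.14 against 21.5 and 14.2 CPM), and its part in these levels was not tested.

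**Figure D1:**
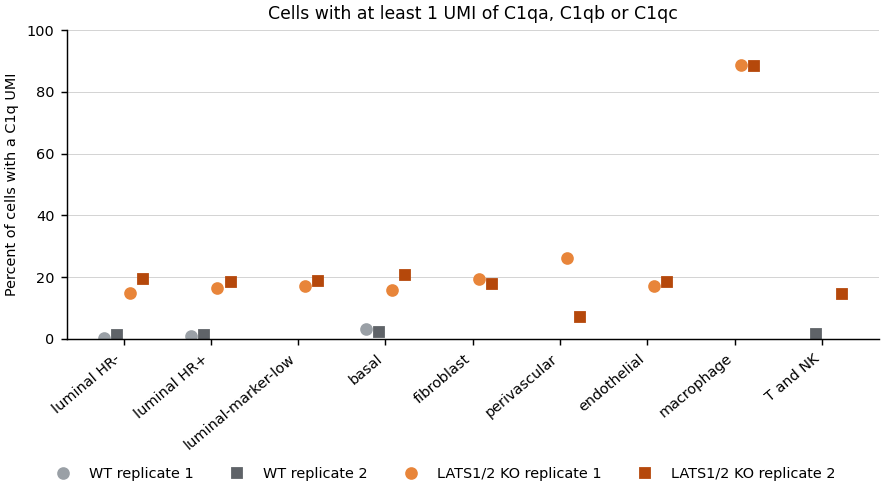
Percent of cells with at least 1 UMI of C1qa, C1qb or C1qc (vertical axis) in each lineage with at least 20 cells (horizontal axis), 1 point per library, grey for WT and orange for LATS1/2 KO. Macrophages of LATS1/2 KO lie at 88.9% and 88.3% while the other LATS1/2 KO classes drawn lie between 6.98% and 26.1%. Adipocytes (29.2%), WT macrophages, which number 7 and 5, and classes without a C1q UMI are not drawn.

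C1q was also fitted in lineages outside macrophages. In fibroblasts, neither WT library held a C1qa or C1qb UMI, and the LATS1/2 KO libraries held 27 and 65 C1qa and 37 and 68 C1qb UMIs. The test missed its threshold for both (adjusted p = 0.0967 each, edgeR quasi-likelihood test). In endothelial cells C1qb had 0 UMIs in both WT libraries and 21 and 20 in LATS1/2 KO, and it was called higher (adjusted p = 0.0222). It was the only one of 5 members tested that was called there, where 9.76% of all genes tested were called. With no WT UMIs, these genes passed the low-count filter only through LATS1/2 KO, in fibroblasts as in endothelial cells. Their direction was thus fixed beforehand, and the endothelial call is not read as expression. The call was lost without a low-count filter (adjusted p = 0.261) and without either WT library (0.259 and 0.47). In basal cells C1qa (adjusted p = 0.14) and C1qb (adjusted p = 0.139) did not pass. C1qb in basal cells, and C1qa and C1qb in fibroblasts, were each called in 1 alternative setting that kept all libraries and missed in 5.

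C1ra and C1s1 encode the C1 proteases and lie close together on chromosome 6 (124512405 to 124523443 on the plus strand and 124530345 to 124542359 on the minus strand). Both were highest in fibroblasts. C1ra was 337 and 336 CPM in WT fibroblasts and 248 and 302 in LATS1/2 KO, and C1s1 was 456 and 444 against 322 and 431. The WT values lay above the LATS1/2 KO values for both genes, but the differences were small against the fitted error (log2 fold change -0.16 ± 0.28 SE, adjusted p = 0.811, and -0.13 ± 0.28, adjusted p = 0.856). Perivascular cells came next for C1s1 with 235 and 129 CPM in LATS1/2 KO, from 15 and 20 UMIs. Endothelial C1ra was 31.7 and 25.4 CPM in WT and 8.76 and 11.6 in LATS1/2 KO, from 5 to 12 UMIs per library, and the difference of -1.42 ± 0.58 did not pass (adjusted p = 0.146).

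C1s1 was also present in luminal-marker-low cells of LATS1/2 KO. It stood there at 14.7 and 13 CPM, from 204 and 190 UMIs, where free RNA was estimated to give 1.79 and 3.44 CPM. These cells lay under the fibroblasts by a wide margin, at 4.56% and 3.01% of the fibroblast level. Summed fibroblast markers in the same cells were 0.37% and 0.597% of theirs. In luminal HR- cells C1s1 was 0.304 and 0.184 CPM in WT and 3.28 and 4.51 in LATS1/2 KO, with free RNA estimated at 2.22 and 3.97 CPM in the latter, so the LATS1/2 KO level was near background. C1ra in luminal HR+ cells was 6.67 and 6.55 CPM in WT and 2.96 and 4.05 in LATS1/2 KO. Each protease has a near copy in the mouse genome, C1rb and C1s2. C1rb held 0 to 11 UMIs per library against 215 to 1680 for C1ra, and C1s2 held 0 to 18 against 105 to 2645 for C1s1. Of 411 windows of 90 bases in the last 500 transcript bases, 11.2% of those of C1ra and 2.68% of those of C1s1 also occur in the copy, so reads from those stretches cannot be assigned.

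**Figure D2:**
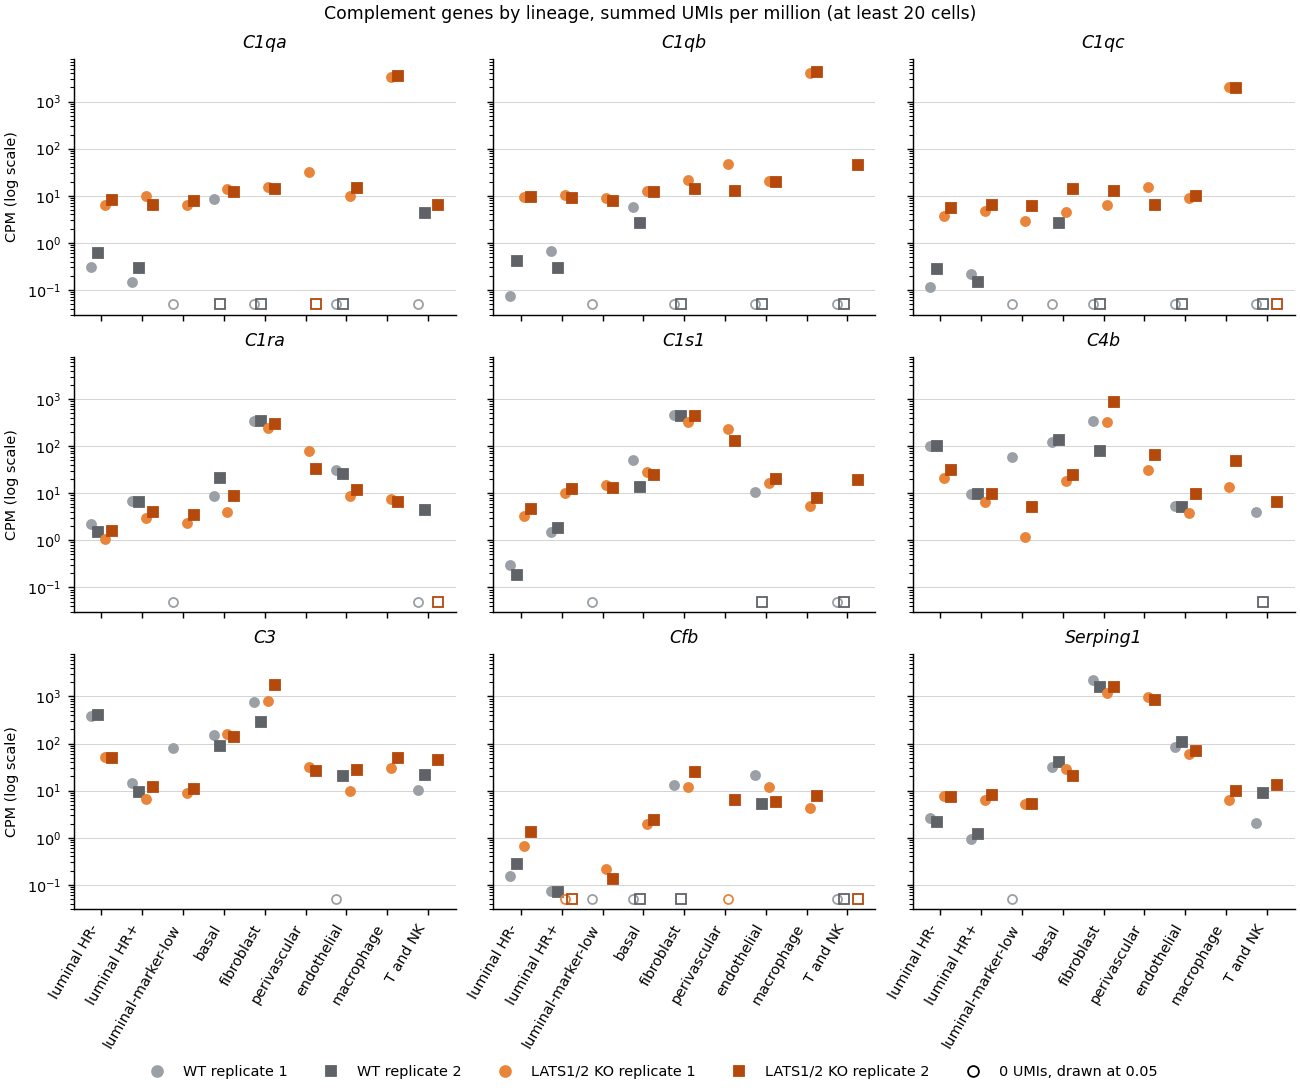
Level of each gene in CPM (vertical axis, log scale) by lineage (horizontal axis), 1 point per library with at least 20 cells of the lineage, adipocytes left out, grey for WT and orange for LATS1/2 KO, circles for replicate 1 and squares for replicate 2. The C1q chains stand out in macrophages, C1ra, C1s1 and Serping1 in fibroblasts, C3 in WT luminal HR- cells and in fibroblasts, and C4b in fibroblasts and in WT basal and luminal HR- cells. Open symbols mark 0 UMIs and are drawn at 0.05.

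C3, the convergence point of the cascade (chromosome 17, 57203970 to 57228136, minus strand), was a luminal HR- transcript in WT glands. It stood at 387 and 409 CPM in WT luminal HR- cells, from 10183 and 8904 UMIs, and at 52.1 and 49.1 CPM in LATS1/2 KO, from 714 and 805 UMIs. The groups were far apart and the libraries within each group close, with a fitted log2 fold change of -3.32 ± 0.11 SE, which is given without a test because C3 was chosen for it. After each cell was thinned to 2000 UMIs, 46.0% and 45.7% of WT luminal HR- cells held a C3 UMI against 10.5% and 9.51% in LATS1/2 KO (unthinned 74.9% and 75.2% against 30.5% and 31.1%). T and NK cells, which should lack C3, held a C3 UMI in 2.24% and 8.06% of thinned WT cells and in 10.8% of those of LATS1/2 KO replicate 2 (unthinned 3.05%, 7.35% and 12.7%), at median depths of 2685.5, 3083.5 and 2506 UMIs against 6876 to 8055.5 in luminal HR- cells. In LATS1/2 KO replicate 2 the thinned share of T and NK cells rested on 4 of 37 cells (exact interval 3.03% to 25.4%). That of luminal HR- cells rested on 145 of 1525 (8.08% to 11.1%), so these shares could not be ordered. The luminal level of 49.1 CPM exceeded the 16.2 CPM estimated for free RNA there, and 52.1 exceeded 6.14 CPM in replicate 1.

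The 250 bases before the C3 start are shown because the gene carried the largest fall among the 9 in luminal HR- cells (chr17:57228137-57228386, GRCm38.p6, minus strand, 5′ to 3′). Capitals mark a match to TTGCGNAA, a core bound by C/EBP factors, which regulate C3 in liver.
C3: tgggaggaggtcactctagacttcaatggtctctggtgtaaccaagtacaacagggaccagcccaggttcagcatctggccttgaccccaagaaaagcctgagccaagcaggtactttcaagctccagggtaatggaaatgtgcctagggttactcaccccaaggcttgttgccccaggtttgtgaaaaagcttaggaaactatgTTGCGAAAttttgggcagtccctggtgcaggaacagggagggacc
The match began 45 bases before the start, and 0.67% of the 32851 promoter windows hold these letters on either strand. Windows for C1ra and C1s1 were also among the 5 of 9 members in the promoter table and are not printed, while C1qa, C4b, Cfb and Serping1 had no entry.

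C3 was low elsewhere in the luminal epithelium. Luminal HR+ cells held 14.4 and 9.22 CPM in WT and 6.72 and 12.1 in LATS1/2 KO, which overlap, and free RNA was estimated at 7.71, 8.87, 5.92 and 18.1 CPM in the same sums. The level in WT replicate 1 (exact Poisson interval 12.4 to 16.5 CPM) lay above its estimate, whereas the intervals of the other libraries held theirs. Luminal-marker-low cells of LATS1/2 KO held 8.99 and 11 CPM, against estimates of 4.97 and 14.1. When HR-, HR+ and luminal-marker-low cells were pooled, the fitted log2 fold change of C3 was -3.36 ± 0.09. Adding the luminal-marker-low cells to luminal HR- made it -4.05, and taking clusters in place of marker scores made it -2.99. Both were alternatives chosen around the same contrast, and the fall was present in each.

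C4b, the substrate of C1s and a part of the classical C3 convertase (chromosome 17, 34728380 to 34743882, minus strand), had a pattern close to that of C3 in luminal HR- cells. It was 101 and 102 CPM in WT and 21.1 and 30.7 in LATS1/2 KO, a fitted log2 fold change of -2.31 ± 0.17 that is given as a description. In luminal HR+ cells it was 9.82 and 9.79 CPM against 6.45 and 9.72. The adjacent paralog C4a is not among the genes listed in the count tables, so reads of this pair could not be compared between the copies. Luminal differences of the other members are likewise given as levels. In luminal HR- cells C1qb was 0.0761 and 0.413 CPM in WT and 9.19 and 9.21 in LATS1/2 KO, Serping1 was 2.66 and 2.16 against 7.73 and 7.32, and C1ra was 2.17 and 1.52 against 1.09 and 1.59. Free RNA was estimated at 5.85 and 13.3 CPM of Serping1 and at 1.24 and 2.52 CPM of C1ra in LATS1/2 KO. Cfb was 0.152 and 0.276 against 0.656 and 1.34 CPM, from 4 to 22 UMIs per library.

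Basal cells, the contractile outer layer of the ducts, provided a test that the choice of genes had not used. C4b was 125 and 138 CPM in WT basal cells and 18.4 and 24.8 in LATS1/2 KO, with no overlap. It fell by 2.70 on the log2 scale (SE 0.25, adjusted p = 1.44e-11, edgeR), in both LATS1/2 KO libraries relative to both WT libraries. After thinning, 26.4% and 23.5% of WT basal cells held a C4b UMI against 2.51% and 5.52%. It was the only call among the 6 members tested in basal cells, where 29.0% of all genes tested were called. Free RNA was estimated at 20.4 and 17.4 CPM of C4b in WT and 3.06 and 11.1 in LATS1/2 KO, less than the measured level in each library. Basal cells numbered 98 and 89 in WT and 245 and 318 in LATS1/2 KO. Their median depths were 3492.5 and 3742 against 5784 and 5910.5 UMIs. An EYFP UMI was carried by 2.45% and 5.35% of the LATS1/2 KO basal cells. Whether C4b fell in basal cells without Cre activity was not tested.

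C3 did not follow C4b in basal cells. Its levels were 150 and 87.5 CPM in WT and 162 and 137 in LATS1/2 KO, which overlap, and the difference of 0.21 ± 0.21 did not pass (adjusted p = 0.513). With an estimate of free RNA subtracted it was 1.01 and passed (adjusted p = 0.0446). That estimate, made from collagen UMIs, gave 371 and 370 CPM of Clu in WT basal cells, where 51.1 and 53.1 CPM were measured, so it overstates the background of those cells. Without WT replicate 2 the difference was -0.15. Serping1 in basal cells was 31.2 and 39.8 CPM in WT against 28.2 and 20.1, without overlap, and the difference of -0.71 ± 0.37 did not pass (adjusted p = 0.147), while it passed in sums thinned to the smallest library (adjusted p = 0.0478) and with free RNA subtracted (0.0474). C1s1 was 51.1 and 13.3 against 28.8 and 23.9 CPM (adjusted p = 0.495).

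Fibroblasts held the highest levels of C3, C4b, C1ra, C1s1 and Serping1 among the tested stromal and epithelial lineages of LATS1/2 KO. C3 was 766 and 286 CPM in WT fibroblasts and 801 and 1793 in LATS1/2 KO. C4b was 337 and 79.0 CPM against 322 and 850. The libraries of each condition differed widely, C4b overlapped between conditions and C3 of WT replicate 1 lay just under that of LATS1/2 KO replicate 1. Neither difference passed (C3 1.39 ± 0.48, adjusted p = 0.128, and C4b 1.52 ± 0.58, adjusted p = 0.165). None of the 8 members tested in fibroblasts was called, where 5.26% of all genes tested were called by edgeR, while 4 members had an unadjusted p under 0.05. DESeq2 called none of the 8 either. Both genes passed without a low-count filter (C3 5.11e-05 and C4b 4.9e-05) and without LATS1/2 KO replicate 1 (C3 1.09e-10 and C4b 2.25e-09). The WT sums rest on 57 and 24 cells. Macrophages of LATS1/2 KO held little C3 beside this, 30.8 and 48.4 CPM, where free RNA was estimated at 7.64 and 13.9 CPM.

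The spread of C3 among LATS1/2 KO fibroblasts went with Scara5 and Lrrc15, genes that mark separate fibroblast states in many tissues and that were picked with these data known. Cells with Scara5 and no Lrrc15 UMIs, 90 in replicate 1 and 505 in replicate 2, held 2363 and 2694 CPM of C3. Those with Lrrc15 and no Scara5 UMIs, 150 and 160 cells, held 62.9 and 101 CPM. Both libraries had the same order for every member shown. C4b was 807 and 1226 CPM in Scara5 cells against 49.9 and 81.2 in Lrrc15 cells. Serping1 was 2120 and 2185 against 541 and 497, C1s1 499 and 548 against 235 and 187, and C1ra 446 and 407 against 133 and 96.4. Cfb was 24.3 and 32.5 against 7.59 and 10.5 CPM. Scara5 cells were more numerous in replicate 2, and C3 in cells with UMIs of neither gene also differed, at 406 CPM in 58 cells of replicate 1 and 959 CPM in 210 cells of replicate 2. WT replicate 1 had 21 Scara5 cells at 1821 CPM of C3, and WT replicate 2 had 9 at 298 CPM, from 14 UMIs. WT libraries held 2 and 0 Lrrc15 cells, so the class could not be compared between conditions.

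**Figure D3:**
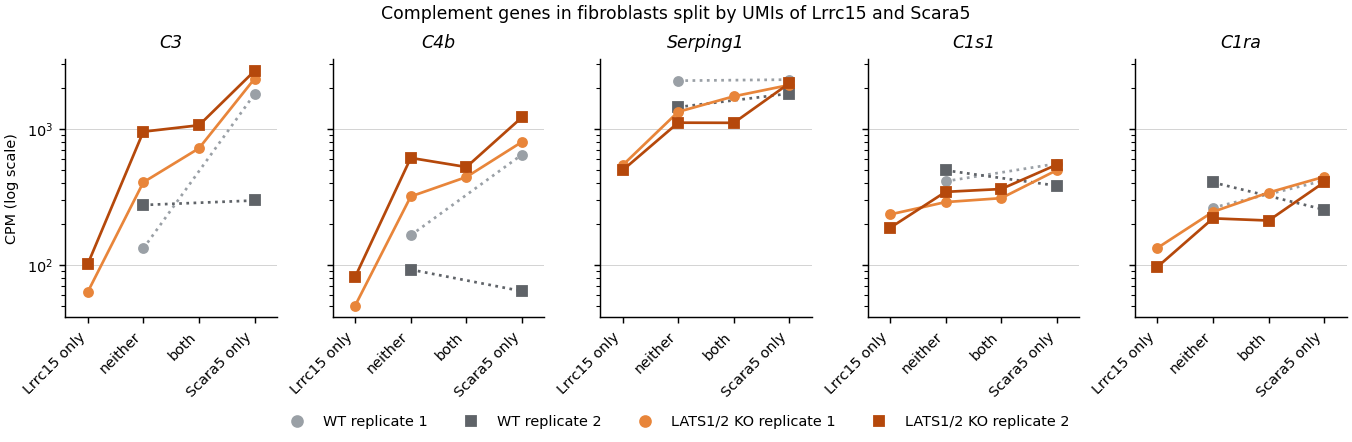
CPM (vertical axis, log scale) of 5 complement genes in fibroblasts with UMIs of Lrrc15 only, of neither gene, of both, or of Scara5 only (horizontal axis), 1 line per library, grey for WT and orange for LATS1/2 KO, for classes large enough to draw. In both LATS1/2 KO libraries C3 runs from 62.9 and 101 CPM in Lrrc15 cells to 2363 and 2694 in Scara5 cells, a wider span than that of Serping1, C1s1 or C1ra.

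Cfb, the alternative pathway protease (chromosome 17, 34856374 to 34862518, minus strand), was rare. It reached 13.3 and 0 CPM in WT fibroblasts and 12.2 and 24.4 in LATS1/2 KO, which overlap (1.22 ± 0.93, adjusted p = 0.502). Endothelial cells held 21.1 and 5.08 CPM in WT, from 4 UMIs and 1 UMI, and 11.7 and 5.81 in LATS1/2 KO, from 12 and 6 UMIs. It was too low to be tested in basal and endothelial cells.

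Serping1, the inhibitor of C1r and C1s (chromosome 2, 84765387 to 84775444, minus strand), was a stromal transcript in both conditions. Fibroblasts held 2227 and 1629 CPM in WT and 1158 and 1606 in LATS1/2 KO. The lower WT library lay just above the higher LATS1/2 KO library, and the difference of -0.35 ± 0.28 did not pass (adjusted p = 0.532). After thinning, 98.0% and 100% of WT fibroblasts held a Serping1 UMI against 71.3% and 81.1%. Perivascular cells held 955 and 849 CPM in LATS1/2 KO and 552 and 236 in WT, the WT values resting on 12 and 3 cells. Endothelial cells held 84.4 and 107 CPM in WT and 59.4 and 68.8 in LATS1/2 KO (-0.53 ± 0.30, adjusted p = 0.33). Luminal cells of LATS1/2 KO were at 5.11 to 8.10 CPM, between 0.327% and 0.667% of the fibroblast level, where summed fibroblast markers stood at 0.37% to 1.82% of theirs. The 5 genes most alike to Serping1 over the 31 sums were Cygb (r 0.939), Cped1 (0.932), Slit3 (0.924), Meis2 (0.912) and Sod3 (0.905). For C3 they were Gpm6b (0.739), Egfr (0.734), Boc (0.723), Gas1 (0.704) and Fam46a (0.697), a looser likeness.

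The lineage holding most of a gene's UMIs changed between conditions for C3 and C4b, and the lineage with the largest share also changed for C1ra. Luminal HR- cells gave 88.0% and 90.2% of all C3 UMIs in WT, and 26.0% and 7.43% in LATS1/2 KO, where fibroblasts gave 50.2% and 79.3%. For C4b luminal HR- cells gave 81.6% and 81.2% in WT and 29.0% and 9.45% in LATS1/2 KO, with 55.5% and 76.5% from fibroblasts. For C1ra luminal HR+ cells gave 33.2% and 42.3% in WT, against 27.7% and 15.8% from fibroblasts. In LATS1/2 KO fibroblasts gave 77.1% and 86.1% of C1ra UMIs. Cfb held only 13 and 11 UMIs in the WT libraries. Over whole libraries, C3 was 247 and 232 CPM in WT and 70.7 and 242 in LATS1/2 KO, so LATS1/2 KO replicate 2 matched the WT libraries in total with a different source. Serping1 was 14.9 and 7.15 CPM over whole WT libraries and 67.4 and 198 over those of LATS1/2 KO, with fibroblasts at 1.16% and 0.683% of kept cells in WT and 6.91% and 17.3% in LATS1/2 KO. C1qb went from 1.56 and 0.328 to 116 and 150 CPM with macrophages at 0.142% of cells in both WT libraries and at 5.22% and 6.66% in LATS1/2 KO. In a whole-library value, more cells of a type and more RNA per cell cannot be told apart.

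**Figure D4:**
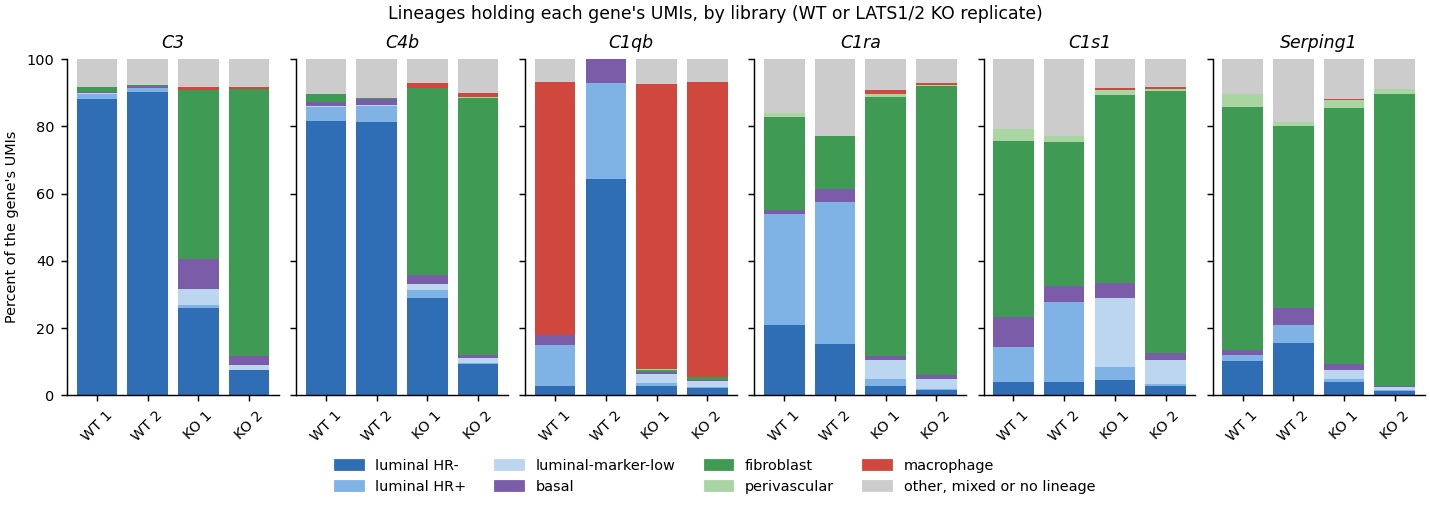
Percent of each gene's UMIs (vertical axis) held by each lineage, 1 bar per library, with grey for cells of other, mixed or no lineage. Most C3 and C4b UMIs lie in luminal HR- cells in both WT libraries and in fibroblasts in both LATS1/2 KO libraries. The largest share of C1ra lies in luminal HR+ cells in both WT libraries and in fibroblasts in both LATS1/2 KO libraries. C1qb lies in macrophages except in WT replicate 2, whose bar stands for few UMIs, and Serping1 in fibroblasts throughout.

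Within the LATS1/2 KO mice, cells with at least 1 EYFP UMI (EYFP+), the mark of Cre activity, were compared with cells without (EYFP-), a contrast that had played no part in choosing the genes. Luminal HR- cells numbered 184 EYFP+ and 1309 EYFP- in replicate 1 and 239 and 1335 in replicate 2. C3 was 54.4 CPM in EYFP- and 42.9 in EYFP+ cells of replicate 1, and 52.9 and 37.9 in replicate 2. It was lower in EYFP+ cells of both mice (-0.45 ± 0.10, adjusted p = 0.0018, edgeR with mouse as block). C4b went from 23.7 to 11 CPM and from 34.1 to 20.3 (-0.90 ± 0.15, adjusted p = 3.63e-05). C1s1 was higher, at 2.66 and 5.67 CPM in replicate 1 and 3.82 and 6.59 in replicate 2 (0.87 ± 0.31, adjusted p = 0.0413). C1qb was lower (10.7 and 3.19, then 10.1 and 6.59 CPM, adjusted p = 0.00422). These were 4 calls among 8 members tested, where 25.1% of all genes tested were called. In EYFP- cells C1qb and C1s1 were near the free RNA estimates given above for luminal HR- cells of LATS1/2 KO. The part of free RNA in the calls of C1qb and C1s1 was not tested. EYFP+ cells were deeper, with median UMIs of 13665 and 15120 against 6804 and 7348. As an alternative, cells with at least 2000 UMIs were thinned to 2000, and EYFP status was read again from the thinned counts. Cells that lost their EYFP UMIs then counted as EYFP-. The classes thus differed from those above, and the part of depth alone was not tested. In that setting C4b passed (-2.86, adjusted p = 0.00803), C3 missed the threshold (-0.89, adjusted p = 0.318) and C1qb was at 0.05 (adjusted p = 0.991). C3 also missed it with DESeq2 (adjusted p = 0.236) and in clusters (adjusted p = 0.89), and C4b missed it in clusters (adjusted p = 0.0712). C1s1 missed it in clusters and in thinned sums (adjusted p = 0.11). The difference between EYFP- cells of LATS1/2 KO and WT was wider than this contrast, with C3 at 54.4 and 52.9 CPM in the former and 387 and 409 in the latter. EYFP- cells can include cells with Cre activity whose EYFP UMIs were missed, the more so at their lower depth. The wider difference therefore does not show that C3 was low in cells without Cre activity, which was not tested.

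In luminal-marker-low cells the same contrast gave 2 calls among 8 members, where 8.85% of all genes tested were called. C3 was 14.6 CPM in EYFP- and 3.96 in EYFP+ cells of replicate 1, and 13.5 and 9.69 in replicate 2. It was called lower in EYFP+ cells (-1.03 ± 0.20, adjusted p = 1.27e-05, edgeR). The EYFP- level of replicate 1 lay above the free RNA estimate given above for this class and library. The other C3 levels were near or below theirs, and the part of free RNA was not tested. C1s1 was 8.67 and 20.1 CPM in replicate 1 but 14.3 and 12.3 in replicate 2, so the 2 mice went opposite ways although the fit called it higher (0.52 ± 0.18, adjusted p = 0.0377). C4b was 2.13 and 0.273, then 5.65 and 4.64 CPM (adjusted p = 0.272). Serping1 was 6.09 and 4.23, then 7.46 and 4.12 CPM (adjusted p = 0.108).

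**Figure D5:**
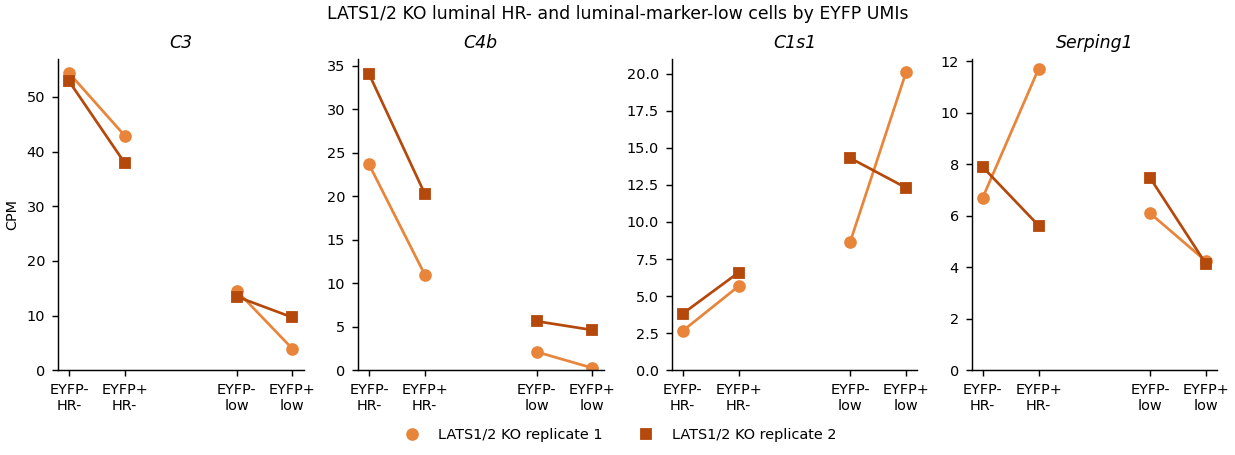
CPM (vertical axis, from 0) of C3, C4b, C1s1 and Serping1 in EYFP- and EYFP+ luminal HR- and luminal-marker-low (low) cells, 1 line per LATS1/2 KO mouse. C3 and C4b lie lower in EYFP+ cells of both mice in both classes, while C1s1 and Serping1 each go opposite ways in the 2 mice in 1 of the classes.

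Beside the 9 members, 48 other complement genes were in the tables. In luminal HR- cells 21 of them were tested and 10 were called higher and 7 lower, where 54.8% of all genes tested were called in either direction. The part of free RNA in the genes called higher was not tested, so their count is not read as luminal expression. The genes named next were all called lower. Cd55, which speeds decay of the C3 convertases, was 103 and 99.9 CPM in WT and 17.6 and 20 in LATS1/2 KO (-2.77, adjusted p = 9.69e-06). Clusterin (Clu), an inhibitor of the terminal complex, was 1889 and 2137 against 818 and 819 CPM (-1.64, adjusted p = 6.33e-05). Cr1l, a membrane regulator of C3b, went from 80.0 and 77.7 to 57.0 and 58.6 CPM (-0.79, adjusted p = 0.000454), and C1rl from 2.44 and 2.39 to 0.219 and 0.427 (-3.18, adjusted p = 0.000591).

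In luminal HR+ cells 15 of these genes were tested, with 3 higher and 6 lower, where 24.6% of all genes tested were called. Cd55 fell there too, from 25 and 28.6 to 9.68 and 9.72 CPM (-1.47, adjusted p = 0.00458). Clu rose, from 317 and 400 to 1605 and 918 CPM (1.81, adjusted p = 0.00685), while it fell in luminal HR- cells. The difference between these lineages was not tested. C1rl fell from 10.1 and 10.9 CPM to 1.34 and 0 (adjusted p = 0.00721). Cfd, the alternative pathway protease that cleaves factor B, was called higher (0 UMIs in both WT libraries, 10 and 12 in LATS1/2 KO, adjusted p = 0.0111), at 2.69 CPM in replicate 1 and 9.72 CPM in replicate 2. With no WT UMIs, Cfd passed the low-count filter only through LATS1/2 KO, so its direction was fixed beforehand. Free RNA of Cfd was estimated at 0.183 and 14.9 CPM in the LATS1/2 KO libraries, and the 24 adipocytes of replicate 2 held 29133 CPM. Over all luminal cells 24 were tested, 9 higher and 9 lower, where 59.5% of all genes tested were called. The part of free RNA in those called higher was not tested there either.

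Clu was also the single call among 5 tested in basal cells, at 51.1 and 53.1 CPM in WT and 317 and 171 in LATS1/2 KO (2.09, adjusted p = 4.3e-08), where 29.0% of all genes were called. In endothelial cells 7 were tested and 2 called, both lower, against 9.76% of all genes. Clu was 1731 and 1001 CPM in WT and 241 and 228 in LATS1/2 KO (-2.50, adjusted p = 1.19e-05), a call lost without a low-count filter (adjusted p = 0.137) and without either WT library (0.113 and 0.47). Cd55 was 95 and 20.3 against 10.7 and 17.4 CPM (adjusted p = 0.0359), and was lost without any 1 of the 4 libraries. In fibroblasts 14 were tested and Colec11, a lectin pathway recogniser, was called lower, from 12 and 6 UMIs in WT to 2 and 1 in LATS1/2 KO (adjusted p = 0.00125), a call lost without either LATS1/2 KO library, and 5.26% of all genes were called there. Between EYFP+ and EYFP- luminal HR- cells 16 were tested, with C1qbp higher (0.42, adjusted p = 4.35e-05) and Cd59a lower (-0.36, adjusted p = 0.00351), against 25.1% of all genes. In luminal-marker-low cells 13 were tested, with Clu higher (0.46, adjusted p = 2.72e-08), against 8.85% of all genes.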

How the data were processed

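The authors deposited raw UMI counts per gene and barcode, made with Cell Ranger (6.1.2 in the matrix headers, 3.1.0 in the submitters' processing notes, which name build mm10). The counts were whole numbers and were not normalized before deposition. Cells were kept at over 500 genes and a mitochondrial share of UMIs below 20%, as in the study's methods. Lineages were set by the mean log expression of marker lists, with limits chosen after the score distributions had been seen. Free RNA was estimated per lineage and library from collagen UMIs in epithelium or luminal UMIs elsewhere, scaled to the summed library. Counts summed per lineage and library were tested with edgeR 4.0.16 in R 4.3.3 (quasi-likelihood test after TMM scaling and the filterByExpr filter, with p-values adjusted by Benjamini-Hochberg over all genes tested and a threshold of 0.05) in lineages with at least 20 cells in each library. LATS1/2 KO was compared with WT by condition alone, and EYFP+ with EYFP- cells with the mouse as block. Fold changes are log2, LATS1/2 KO over WT or EYFP+ over EYFP-, ± SE. CPM given as levels are scaled to the sum without TMM. The test was checked on simulated counts.

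The members, the gene lists and the tests were chosen with earlier results of these data known. The genes named were all 9 members, the up to 5 other listed complement genes per comparison with the lowest adjusted p among those called (1 of which is not reported here), the copies of C1ra and C1s1, and the 5 genes most alike to C3, C1qa and Serping1 among those with a mean of at least 10 CPM. Clusters from Seurat 5.3.0 (sctransform 0.4.2, 3000 variable genes, 20 principal components, resolution 0.4), DESeq2 1.42.0, RLE size factors, no filter, fewer mitochondrial UMIs (under 10%), thinned sums, subtracted free RNA and leaving out each library were alternatives. Adding luminal-marker-low cells, pooling luminal cells, EYFP within luminal-marker-low cells and a block for C3 were chosen after seeing the data. Gene positions came from GENCODE M21. Of the symbols, 58 were listed more than once, with none among the members.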

Additional observations from a re-analysis of the deposited data

Results flagged for a closer look

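For 3 of the complement genes the libraries of another lineage moved opposite to those of luminal HR- cells between conditions, measured as the log2 of the mean CPM plus 1, LATS1/2 KO minus WT. C3 was -2.95 in luminal HR- cells and 1.3 in fibroblasts. C1s1 was 1.98 in luminal HR- cells and -0.26 in fibroblasts. Serping1 was 1.32 in luminal HR- cells, -0.54 in basal cells, -0.48 in fibroblasts and -0.57 in endothelial cells. In each case every LATS1/2 KO library lay on one side of both WT libraries in the first lineage and on the other side in the second. None of these differences between lineages was tested, and the luminal values of C3 were part of why the genes were chosen. Before any alternative setting was applied, the edgeR differences listed here for fibroblasts, basal and endothelial cells all missed the threshold. Those of C1s1 and Serping1 in fibroblasts also changed sign in places when 1 library was left out. The luminal levels of C1s1 and Serping1 in LATS1/2 KO were near the free RNA estimate, whose part was not tested.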

How the results depend on the processing

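With 2 mice per condition the calls among stromal cells depended on the settings. The number of genes called in luminal HR+ cells (2945) was 1816 with DESeq2 and 1721 in thinned sums. In basal cells (2401) it was 820 with DESeq2 and 1424 in thinned sums. In fibroblasts (421) it was 858 without a low-count filter, 667 in clusters and 240 in thinned sums. In endothelial cells (654) it was 263 with DESeq2, 357 in thinned sums and 0 by edgeR without a filter, where 1690 genes had an unadjusted p under 0.05. For EYFP+ against EYFP- luminal HR- cells (2988) it was 513 with DESeq2, 80 in clusters, 187 with cells thinned to 2000 UMIs and 5599 with luminal-marker-low cells added, an alternative chosen after seeing the data. Leaving out 1 library gave 5251 to 6942 calls in luminal HR- cells (7206), 273 (without LATS1/2 KO replicate 1) to 3292 in luminal HR+, 1546 to 1743 in basal cells, 4 (without WT replicate 1) to 620 in fibroblasts, with 62 without WT replicate 2, and 0 to 366 in endothelial cells. The 0 came without WT replicate 1 or 2, where 1300 and 911 genes had an unadjusted p under 0.05. For EYFP no library was left out because 1 mouse leaves no residual degrees of freedom. Macrophages, perivascular cells and T and NK cells were not tested, as a library held fewer than 20 of their cells. T and NK cells reached this size only without LATS1/2 KO replicate 1 (117 calls) or in clusters (67 calls).

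The replicate numbers did not pair the mice, since deviations of same-numbered libraries correlated at 0.0, 0.01, -0.01, 0.03 and 0.1 in luminal HR-, luminal HR+, basal, fibroblast and endothelial cells over 2 pairs. With the replicate block the counts were 6982, 2582, 2424, 663 and 839, C3 in luminal HR- cells was -3.32, and no call of a member changed. Without the mouse as block (no replicate block) 14 genes were called for EYFP, and C3 (adjusted p = 0.205), C4b (0.231), C1s1 (0.259) and C1qb (0.211) were lost.

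C3 in luminal HR- cells (-3.32) was -2.99 in clusters, -3.57 with free RNA subtracted and -4.05 with luminal-marker-low cells added, and in luminal HR+ cells (-0.48) it was -1.75 in clusters. Its LATS1/2 KO level in luminal HR- cells (50.6 CPM) was 62.7 in clusters and 42.8 with free RNA subtracted, and C4b in WT (101 CPM) was 102 and 103. The macrophage levels of C1qa, C1qb and C1qc (3386, 4128 and 2023 CPM) were 2765, 3389 and 1642 in clusters and 3674, 4479 and 2197 with free RNA subtracted, and C1qb was 4241 under 10% mitochondrial UMIs. The macrophage share of C1qa (86.7%) was 91.6% in clusters and 92.2% with free RNA subtracted, and the fibroblast share of Serping1 (81.4%) was 90.3% in clusters.

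Differences that missed the threshold changed sign in places. Leaving out 1 library, basal C1s1 ranged from -1.11 to 0.89 and C3 from -0.15 to 0.69, fibroblast C1ra from -0.33 to 0.03 (0.0 without WT replicate 1), C1s1 from -0.38 to 0.12 and Serping1 from -0.64 to 0.05, and endothelial C3 from -0.06 to 6.81. Basal C1s1 was 0.07 in thinned sums, and in fibroblasts C1ra was 0.19 and C1s1 0.09 in clusters, with C1s1 at 0.01 without a filter. Between EYFP+ and EYFP- cells, C1qb was 0.05 and C1qc 0.06 with cells thinned, C1qc 0.12 in clusters, C1ra 0.64 with luminal-marker-low cells added, and Serping1 -1.15 in clusters, -0.40 with cells thinned and -0.43 with those cells added. C1qbp was -0.07 and Cd59a 0.12 in clusters. The cause of these changes was not tested. TMM scaling shifted LATS1/2 KO against WT by 0.34 (log2) in luminal HR- cells, 0.12 in basal cells and -0.13 in fibroblasts, and fold changes are relative to it.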

Other observations

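Adipocytes were captured in 1 library only, with 24 cells in LATS1/2 KO replicate 2. They held 806 CPM of C3 (exact Poisson interval 698 to 926), 681 CPM of C4b (582 to 792) and 339 CPM of Serping1 (270 to 419), and C1ra was at 0 UMIs. With 1 library of this lineage there is no replicate and no comparison between conditions.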
